A study of Mus musculus and Homo sapiens with 22 samples.

Results

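The 10 genes described here encode catalytic and large subunits of chromatin remodelling complexes: Arid1a, Arid1b, Arid2, Smarca4, Smarca2, Smarcc1, Chd4, Chd7, Ep400 and Ino80. They were chosen by name, as 10 of the 56196 genes in the RNA-seq count tables, and for the human cells by the 10 human symbols spelled the same way in upper case. Their values come from gene counts of 6 RNA-seq libraries and from the positions of N6-methyladenosine (m6A) sites in 6 lists made with miCLIP2. In miCLIP2, UV light links RNA to an antibody against m6A, and the ends of the cDNAs mark the modified base.

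Of the RNA-seq libraries, 3 came from mouse embryonic stem cells (mESCs) of wild-type (WT) genotype and 3 from Mettl3 knockout (KO) mESCs, both cultured with FBS and LIF. Mettl3 is the catalytic subunit of the m6A methyltransferase of mRNA. Both genotypes came from an earlier publication, and the sources used here state neither the deleted part of Mettl3 nor how many clones were used, so a difference between the lines cannot be told apart from an effect of the allele. The sites in the lists had been called by m6Aboost, which was trained on sites lost in Mettl3 KO mESCs. Its inputs include the sequence around the A and the transcript region, so like sequences favour like calls in every list. The lists cover WT mESCs (from 3 replicates), HEK293T cells, a human embryonic kidney line (from 4 replicates), and commercial mouse heart RNA, with 1 library from 1 µg of RNA and 1 library each from 300, 100 and 50 ng. The lists pool the replicates and carry no read depth or spread per site, so the number of sites in a gene is a single value per list.

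Remodellers use ATP to move, eject or exchange nucleosomes. SWI/SNF or BAF complexes are built around the ATPase Smarca4 (Brg1) or its paralogue Smarca2 (Brm) on a scaffold with Smarcc1. The mutually exclusive subunits Arid1a and Arid1b define canonical BAF, and Arid2 defines PBAF. Chd4 is the ATPase of the NuRD deacetylase complex, Chd7 is a CHD-family remodeller that is best known at enhancers, Ep400 is the ATPase of the TIP60 complex, and Ino80 is that of the INO80 complex. In mESCs the Smarca4-containing form of BAF supports the pluripotent state.

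In GRCm38, Arid1a is at chr4:133679008-133756769 (minus strand), Arid1b at chr17:4994332-5347656 (plus), Arid2 at chr15:96287518-96404992 (plus), Smarca4 at chr9:21616169-21704230 (plus) and Smarca2 at chr19:26605050-26778322 (plus). Smarcc1 is at chr9:110117708-110240178 (plus), Chd4 at chr6:125095981-125130591 (plus), Chd7 at chr4:8690406-8867659 (plus), Ep400 at chr5:110664373-110770717 (minus) and Ino80 at chr2:119373042-119477687 (minus).

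Gene counts per library lay between 22746733 and 27254245. In both groups, replicate 2 stood apart in the share of counts taken by its top 10 genes, which was 16.1% in WT and 18.0% in KO against 23.1 to 25.5% in the remaining libraries. Mettl3 RNA, counted over the whole gene, averaged 27.3 ± 1.39 CPM (gene counts scaled to the TMM-adjusted library size) in WT against 19.3 ± 2.95 CPM in KO libraries (SD, n = 3), a log2 fold change of -0.50 that missed the threshold (edgeR adjusted p = 0.0134). A count over the whole gene does not test for the loss of part of it. The 4 mESC markers Pou5f1, Sox2, Nanog and Zfp42 summed to 1756 to 1983 CPM in WT and 1656 to 1768 CPM in KO. The 9 markers of fibroblasts, on which such cells can be grown, summed to 10.7 to 14.8 CPM in WT and 13.6 to 14.6 CPM in KO. Single markers moved in opposite directions within these sums. In KO, Thy1 rose 2.28-fold (edgeR adjusted p = 0.00206) and Pdgfrb fell to 0.542 of its WT level (edgeR adjusted p = 0.00491). In the heart list at 1 µg, sites lay in 4 of the 6 heart muscle markers (195 in Ttn, 23 in Ryr2, 2 in Tnnt2 and 1 in Myh6), and in Pou5f1, Sox2, Nanog and Zfp42 only the mESC list held sites. Each of the 9 fibroblast markers also held sites in this heart list, from 2 in Col1a1 to 16 in Pdgfra. The blood marker Ptprc held 1 and Hbb-bs none.

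The following windows of 21 nt show examples of the sites that were compared between genes, tissues and species. Positions are counted along the transcript from the last base of the stop codon, so that negative positions lie upstream of its end. The sequences were read 5′ to 3′ on the strand of the gene from GRCm38 (mouse) and GRCh38 (human), and capitals mark the 5 nt centred on the modified A. Most m6A sites lie in DRACH, where D is A, G or T, R is A or G, and H is A, C or T. The first set holds the 4 positions at which Arid1a and Arid1b carried an mESC site at bases aligned to each other, all in the last coding exon.
Arid1a, position -706, chr4:133681027-133681047, minus strand: tggtggtgGGACTgcttggag
Arid1b, position -706, chr17:5342371-5342391, plus strand: tggtggtgGGACTgcctcgag
Arid1a, position -643, chr4:133680964-133680984, minus strand: gggcaattGGACCtatcccca
Arid1b, position -643, chr17:5342434-5342454, plus strand: gggcagctAGACTtgtctgct
Arid1a, position -55, chr4:133680376-133680396, minus strand: ccactgatGAACTcattggtt
Arid1b, position -55, chr17:5343022-5343042, plus strand: gctgtcctGAACTctctggtt
Arid1a, position -24, chr4:133680345-133680365, minus strand: tttgtgatGTACTgtttttga
Arid1b, position -24, chr17:5343053-5343073, plus strand: tctgtgatGTACTgtttcaga

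The human windows at the first 3 of these positions are shown because HEK293T cells carried sites at all of them in both ARID1A and ARID1B.
ARID1A, position -706, chr1:26780040-26780060, plus strand: tggtggtgGGACTgcttggag
ARID1B, position -706, chr6:157207175-157207195, plus strand: tggtggtgGGACTgcctcgag
ARID1A, position -643, chr1:26780103-26780123, plus strand: gggcagttGGACCtatctcca
ARID1B, position -643, chr6:157207238-157207258, plus strand: gggcagctAGACTtgtctgct
ARID1A, position -55, chr1:26780691-26780711, plus strand: ccgttgatGAACTcattggtt
ARID1B, position -55, chr6:157207826-157207846, plus strand: gctgtcctGAACTctctggtt

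The third set gives the mESC site with the highest m6Aboost score in each of 6 other genes, with the human window where HEK293T cells carried a site at the aligned base and that window may be shown.
Arid2, position -1313, chr15:96372171-96372191, plus strand: accacaagGGACTtcgggtgc
Smarca4, position -1272, chr9:21677475-21677495, plus strand: atcgcattGGACAgcagaatg
Smarcc1, position 187, chr9:110237959-110237979, plus strand: ggatggcaGGACTtgtgtctc
SMARCC1, aligned base, chr3:47588139-47588159, minus strand: ggatgacaAGACTtgtgttcc
Chd4, position 289, chr6:125130280-125130300, plus strand: cctgttacAAACTgttgtgga
CHD4, aligned base, chr12:6570380-6570400, minus strand: ttacacacAAACTgttgtggg
Ep400, position -7833, chr5:110755555-110755575, minus strand: acctgattGAACTgttcttct
Ino80, position -6, chr2:119374360-119374380, minus strand: cctctggaGGACGgtaaccat

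Whether the loss of Mettl3 changed the RNA level of the 10 genes was asked first. 4 of them rose in KO mESCs (Arid1a, Arid1b, Arid2 and Chd7), 2 fell (Smarca4 and Smarcc1), and 4 did not pass the test (Smarca2, Chd4, Ep400 and Ino80). A gene was called at an adjusted p of at most 0.01 in edgeR's quasi-likelihood test over 15731 genes, all 10 genes included, without covariates. Of all genes tested, 29.7% were called, 17.1% higher and 12.6% lower in KO. The median log2 fold change of the 10 genes was 0.03, against -0.02 over all genes tested. The ranges of WT and KO did not overlap in 8 of the 10 genes, against 56.1% of all genes. The study calls the replicates of its mESC miCLIP2 libraries biological. The labels do not say whether the RNA-seq libraries came from separate cultures, so the p-values measure the spread between these libraries, which may be technical in part.

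The 3 ARID subunits, which decide whether a complex is BAF or PBAF, were all higher in KO. Arid1b, the less abundant BAF subunit, was at 39.8, 38.8 and 37.0 CPM in WT replicates 1, 2 and 3, and at 123, 147 and 103 CPM in KO. Every KO library was far above every WT library. Its 3.23-fold increase (log2 fold change 1.69 ± 0.14 SE, edgeR adjusted p = 1.59e-05) was the largest change among the 10 genes. Arid1a, the DNA-binding subunit of most BAF complexes, was at 145, 162 and 170 CPM in WT and at 282, 368 and 270 CPM in KO, which again did not overlap. It rose 1.93-fold (log2 fold change 0.95 ± 0.14 SE, edgeR adjusted p = 0.000423). Arid2, the subunit that defines PBAF, was at 109, 101 and 104 CPM in WT and at 163, 170 and 156 CPM in KO. The libraries within each group lay close together, and the rise was 1.56-fold (log2 fold change 0.64 ± 0.10 SE, edgeR adjusted p = 0.000527).

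The ATPase and the scaffold of BAF moved in the other direction. Smarca4 was at 274, 248 and 263 CPM in WT and at 142, 158 and 144 CPM in KO. In bulk samples, a smaller number of expressing cells and less RNA per cell cannot be told apart. No KO library reached the lowest WT library, and the log2 fold change was -0.82 ± 0.10 SE (edgeR adjusted p = 0.000186), so that KO held 0.568 of the WT level. Smarcc1 (Baf155), the scaffold subunit that prevails in mESCs, was at 368, 352 and 422 CPM in WT and at 235, 274 and 250 CPM in KO. The groups did not overlap, with a log2 fold change of -0.59 ± 0.12 SE (edgeR adjusted p = 0.00238). This call was lost without KO replicate 1 (edgeR adjusted p = 0.0210) and without KO replicate 3 (edgeR adjusted p = 0.0147), and over 12 alternatives the adjusted p from edgeR or DESeq2 ranged from 1.1e-05 to 0.0210. Smarca2, the alternative ATPase, was low, at 8.72, 12.3 and 4.67 CPM in WT and 6.00, 6.61 and 5.13 CPM in KO. The groups overlapped, and the log2 fold change of -0.54 ± 0.30 SE did not pass the test (edgeR adjusted p = 0.170). Without WT replicate 3, the library with the lowest Smarca2 level, the value was -0.83 and passed (edgeR adjusted p = 0.00723), the lowest of 12 adjusted p-values from edgeR or DESeq2 that reached 0.607.

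Of the 4 ATPases outside BAF among the 10 genes, Chd7 passed the test and Chd4, Ino80 and Ep400 did not. Chd7 was at 62.5, 53.2 and 63.1 CPM in WT and at 112, 135 and 110 CPM in KO. It was higher in all KO libraries and rose 2.00-fold (log2 fold change 1.00 ± 0.12 SE, edgeR adjusted p = 0.000153). Chd4, the NuRD ATPase, was at 460, 419 and 533 CPM in WT and at 338, 414 and 327 CPM in KO. The KO libraries lay below the WT libraries, KO replicate 2 only just, and the log2 fold change of -0.39 ± 0.14 SE missed the threshold (edgeR adjusted p = 0.0383). Ino80 was at 80.7, 72.5 and 82.3 CPM in WT and at 89.1, 93.9 and 92.8 CPM in KO, without overlap but with a small log2 fold change of 0.23 ± 0.10 SE (edgeR adjusted p = 0.0824). Ep400 overlapped between the groups, at 220, 224 and 195 CPM in WT and 181, 218 and 171 CPM in KO (log2 fold change -0.17 ± 0.12 SE, edgeR adjusted p = 0.286).

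**Figure D1:**
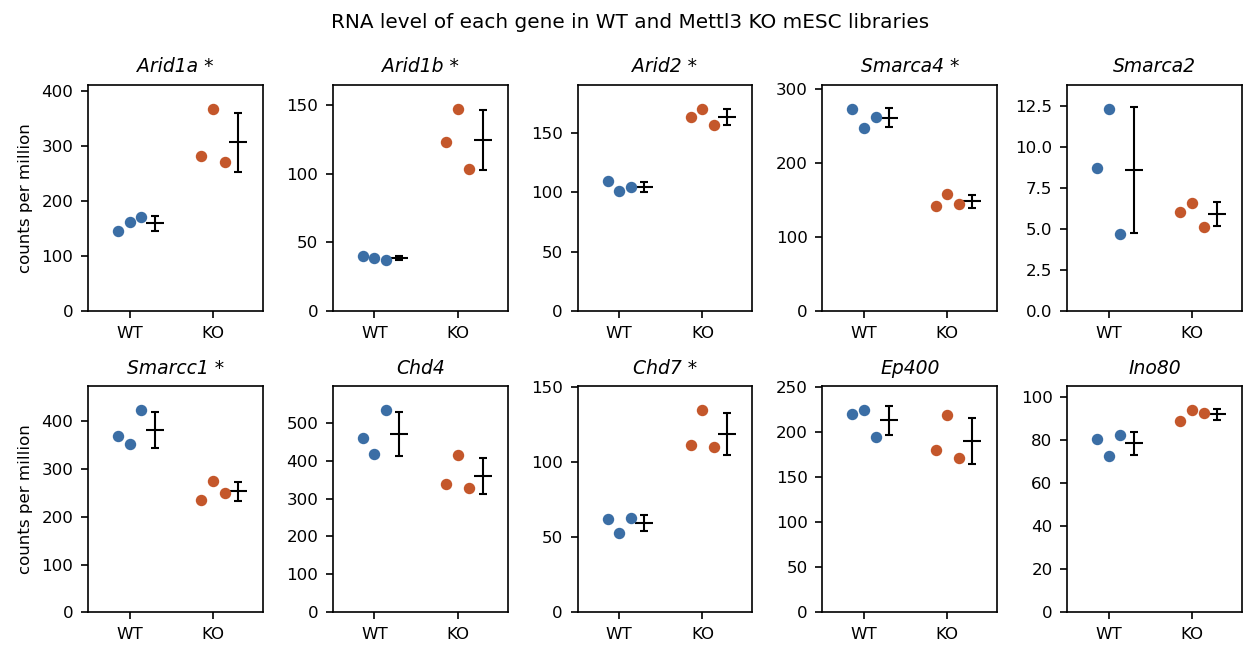
RNA level (CPM, linear axis from 0) of each of the 10 genes in the WT (blue) and Mettl3 KO (orange) mESC libraries. Points are libraries in the order of replicates 1 to 3, bars give the mean and SD (n = 3), and an asterisk marks an edgeR adjusted p of at most 0.01. Arid1a, Arid1b, Arid2 and Chd7 are higher and Smarca4 and Smarcc1 lower in KO, and only Smarca2 and Ep400 overlap.

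The balance between paralogues within a complex was compared as a ratio of gene counts in each library, not divided by exon length. The log2 ratio of Arid1b to Arid1a was -1.86, -2.06 and -2.21 in WT replicates 1, 2 and 3, and -1.19, -1.32 and -1.39 in KO, so that every KO library had the higher share of Arid1b. The group means of -2.04 ± 0.17 and -1.30 ± 0.10 (SD, n = 3) differed by 0.74. With 3 libraries a group, the exact permutation test (two-sided) gave p = 0.1, which is also its lowest possible value (adjusted p = 0.15 over 3 ratios). Arid2 to the sum of Arid1a and Arid1b was 0.591, 0.501 and 0.501 in WT and 0.404, 0.330 and 0.419 in KO, which did not overlap (log2 difference -0.47, two-sided exact permutation p = 0.1, adjusted p = 0.15). Smarca2 to Smarca4 ranged from 0.0178 to 0.0497 in WT and from 0.0355 to 0.0422 in KO. These ranges overlapped (log2 difference 0.38, two-sided exact permutation p = 0.6), and Smarca4 remained the prevailing ATPase RNA in all 6 libraries.

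Per kb of exon, the WT levels fell in the order Chd4 (58.7 ± 7.19 FPKM, SD, n = 3), Smarcc1 (48.7 ± 4.69), Smarca4 (40.4 ± 2.00), Ep400 (15.3 ± 1.14), Arid1a (13.9 ± 1.15), Ino80 (11.5 ± 0.77), Arid2 (9.74 ± 0.39), Chd7 (4.32 ± 0.40), Arid1b (3.06 ± 0.12) and Smarca2 (0.601 ± 0.268). Only the neighbours Chd4 and Smarcc1, and Ep400 and Arid1a, overlapped between libraries. In KO, Arid1a (26.7 ± 4.64 FPKM) overlapped with both Smarcc1 (32.3 ± 2.51) and Smarca4 (22.9 ± 1.34), whereas in WT both were above it in every library. This order and these overlaps depend on the length used, here the merged exons of all annotated transcripts. For Arid1a that is 11476 nt, against 8187 nt for the single transcript used for the sites. For Smarca4 the 2 lengths are 6475 and 6376 nt.

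Over the 6 libraries, the genes with the most similar pattern to Smarca4 were Pkn2 (Pearson r of log2 CPM 0.997), Rab3gap2 and Ssr1 (both 0.997), and those most similar to Arid1a were Garem1 (0.999), Mansc1 and Tcf4 (both 0.998), among 10853 genes compared. These values describe 6 points that fall into the 2 genotypes.

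The other remodeller subunits were taken from a list of 82 genes, of which 81 could be tested and 28 (34.6%) were called, 9 higher and 19 lower in KO. Over all genes tested, 29.7% were called, 17.1% higher and 12.6% lower, so the total lay near this background. The median log2 fold change of the 81 genes was -0.16, against -0.02 over all genes. Of the BAF, PBAF and ncBAF subunits, 2 of 21 rose and 6 fell. Those that rose were the ncBAF subunits Bicra (0.84 ± 0.19 SE) and Bicral (0.86 ± 0.13 SE), and those that fell included Actl6a (-0.78 ± 0.15 SE), the actin-related subunit of progenitor BAF, and Smarcd3 (-2.09 ± 0.33 SE), a muscle-enriched subunit that was low in WT (7.22 ± 3.34 CPM, SD, n = 3). Smarcc2, the paralogue of Smarcc1, had a log2 fold change of 0.21 ± 0.12 SE (edgeR adjusted p = 0.194), the core subunit Smarcb1 one of -0.54 ± 0.15 SE (edgeR adjusted p = 0.0141), and the PBAF subunit Pbrm1 one of 0.13 ± 0.10 SE (edgeR adjusted p = 0.318).

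Among the 19 NuRD and other CHD genes, 1 (Chd8, 0.65 on the log2 scale) rose and 5 fell, with the deacetylase Hdac1 at -0.95 ± 0.16 SE, while Chd3, the paralogue of Chd4, was at 0.07 ± 0.17 SE (edgeR adjusted p = 0.757). The 11 ISWI genes held 4 that rose and 1 that fell. The ATPase Smarca5 fell by 1.05 on the log2 scale (0.12 SE), and its partners Baz1a (0.98 ± 0.11 SE) and Rsf1 (0.96 ± 0.12 SE) rose. Of the 13 INO80 genes, 1 (Ino80d, 0.40) rose and 5 fell, among them the AAA+ helicases Ruvbl1 (-0.78 ± 0.18 SE) and Ruvbl2 (-0.76 ± 0.15 SE), which also belong to the TIP60 and SRCAP complexes. Of the 17 other TIP60 and SRCAP genes, 1 (Yeats4, 0.66) rose and 2 (Ing3, -0.65, and Morf4l2, -0.62) fell, and Srcap itself was at -0.06 ± 0.23 SE (edgeR adjusted p = 0.857). Chd8, Ino80d, Yeats4, Ing3 and Morf4l2 were named after their values were seen, because few genes of their lists were called in that direction. With scaling by library size only, which moved the median of all genes to 0.08, the split of the 26 calls was 12 higher and 14 lower.

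The site lists showed which of the 10 transcripts carried m6A, and where. Sites were assigned to a gene when they lay in its exons on its strand and in no exon of another gene. The 10 genes held 79 of the 25456 mESC sites, 93 of the 46421 heart sites at 1 µg and 63 of the 36556 HEK293T sites.

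Arid1a carried the most of the 10 genes in each of these lists, with 22 sites in mESCs, 24 in heart and 24 in HEK293T cells. Of the 6526 genes with an mESC site, whose median was 3, only 0.260% had as many or more. In mESCs Chd7 was next, with 13 sites against 14 in heart and 11 in HEK293T cells, and then Ep400 with 11, against 11 and 5. Arid2 had 9 sites in mESCs, 18 in heart and 2 in HEK293T cells, and Arid1b had 8, 19 and 8. Both ARID genes thus had more sites in heart than in mESCs, in lists whose totals differ in the same direction.

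The remaining genes carried few. Smarca4 had 5 sites in mESCs, 1 in heart and 6 in HEK293T cells, Ino80 had 5, 2 and 0, and Chd4 had 4, 3 and 5. Smarcc1 had 2 sites in mESCs and in HEK293T cells and none in heart. Smarca2 had no site in mESCs and in HEK293T cells and 1 in heart. The genes with the highest RNA level were not those with the most sites: Chd4 and Smarcc1, the most abundant of the 10 in WT mESCs, had 4 and 2 sites, whereas Chd7 and Arid1b, which were at 4.32 and 3.06 FPKM, had 13 and 8. In Smarca2, at 0.601 FPKM, sites may be missed for lack of reads, and the absence of a site in a list does not show an absence of m6A.

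Per kb of transcript, Arid1a was again the densest in mESCs, with 2.69 sites, followed by Chd7 with 1.27, Arid2 with 1.06 and Ep400 with 1.03. Ino80 (0.787), Smarca4 (0.784), Arid1b (0.706), Chd4 (0.597) and Smarcc1 (0.346) followed. Of all genes with mESC sites, 3.16% had as many sites as Chd7 or more, 5.18% as many as Ep400, 9.29% as many as Arid2 and 12.3% as many as Arid1b. In heart the share for Arid1b was 2.33%.

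The m6Aboost score, which runs from 0 to 1 and was at least 0.501 at the mESC sites of these genes, gave another order. Chd4 had the highest median with 0.790 over its 4 sites (0.704 to 0.954), followed by Ep400 with 0.760 (0.584 to 0.916) and Arid2 with 0.732 (0.588 to 0.889). Arid1a had a median of 0.695 (0.584 to 0.889) and Chd7 of 0.666 (0.501 to 0.860). Arid1b had the lowest median, 0.597 (0.510 to 0.790), and its highest score was at position -706, shown above. The score is a prediction for a position and not a measure of the share of modified transcripts.

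With less heart RNA, 23 sites in 6 of the 10 genes were found at 300 ng, 1 at 100 ng and none at 50 ng. Of the 23, 20 were also in the 1 µg list. The 300 ng list held 10 sites of Arid1a and 6 of Arid1b, of which 9 and 6 were also in the 1 µg list. The only site at 100 ng lay in Arid1b at position -745, and was in both larger heart lists and, at the aligned human base, in HEK293T cells. Of the 3 sites found at 300 ng but not at 1 µg, the one in Arid1a (position -5869) and the one in Chd4 (position 87) were in the mESC list, and the one in Smarca2 (position -4121) was in no other list.

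Sites and DRACH motifs were compared by region. In mESCs, 62 of 79 sites (78.5%, Wilson 95% interval 68.2 to 86.1%) were in the coding sequence, 16 in 3′ UTRs and none in a 5′ UTR, and 1 site of Smarcc1 lay outside the transcript used. Of the 1557 DRACH motifs of these transcripts, 1197 lay in the coding sequence, 336 in 3′ UTRs and 24 in 5′ UTRs, so the motifs were coding about as often as the sites. In mESCs 4.76% of the coding motifs and 4.46% of those in 3′ UTRs carried a site, in heart 6.27% and 2.68%, and in HEK293T cells 3.90% and 3.23%. In heart, 81 of 93 (87.1%, 78.8 to 92.5%) were coding, and in HEK293T cells 51 of 63 (81.0%, 69.6 to 88.8%). The intervals of all shares of sites cover counting error only. Transcript region is an input of m6Aboost, so the shares by region are partly built in.

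Within 400 nt of the stop codon lay 31 of the 79 mESC sites, 35 of the 93 heart sites and 21 of the 63 HEK293T sites. The genes differed in where their sites lay. All 8 mESC sites of Arid1b, all 13 of Chd7 and 21 of 22 of Arid1a were coding, whereas all 4 sites of Chd4 were in its 3′ UTR, as were all 5 of CHD4 in HEK293T cells. In Ep400, 6 of 11 mESC sites and 9 of 11 heart sites lay in exon 2, a coding exon of 1370 nt near the start of the transcript, and 3 and 2 sites lay in the 3′ UTR. In EP400, exon 2 held 1 of 5 HEK293T sites, and the 3′ UTR held the other 4. Arid2 had 8 of 9 mESC sites and 12 of 18 heart sites in exon 15, which is 2843 nt long, and both ARID2 sites of HEK293T cells lay in the matching exon of 2861 nt.

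**Figure D2:**
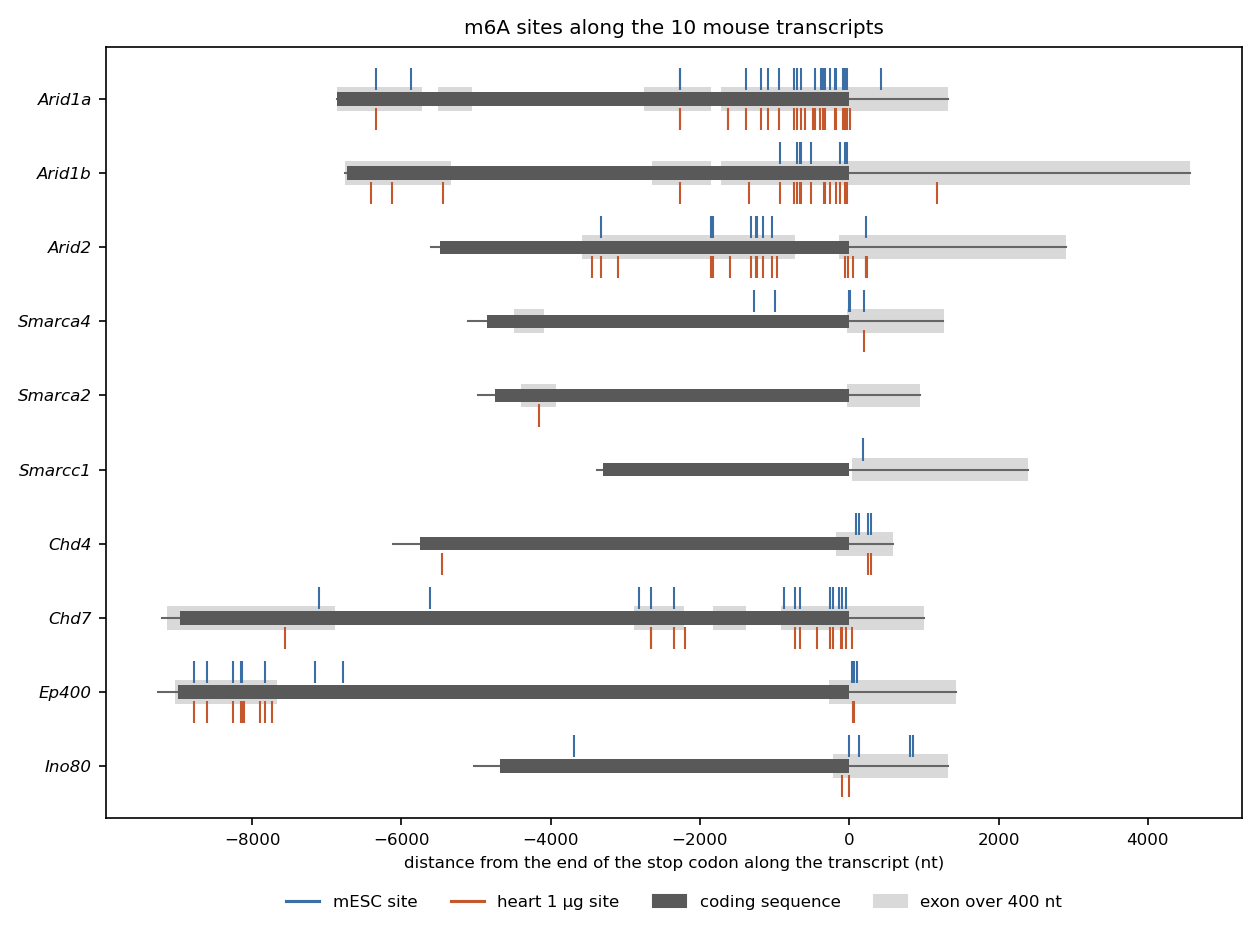
Sites of WT mESCs (blue, above each transcript) and of heart at 1 µg (orange, below) along the 10 mouse transcripts, against the distance in nt from the end of the stop codon. The dark bar is the coding sequence, the thin line the UTRs, and light boxes are exons over 400 nt. The sites of Arid1a and Arid1b gather in the last exon upstream of the stop codon, those of Arid2 in exon 15, those of Ep400 in exon 2, and those of mESC Chd4 in the 3′ UTR.

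Pooled over the 10 genes, the sites were spread unevenly over classes of exons. In mESCs the last exons held 50 of the 79 sites, internal exons over 400 nt held 20, internal exons of at most 400 nt held 6, and first exons held 2. The last exons make up 28.7% of the transcript length and the short internal exons 52.7%. To take the number of possible sites into account, the DRACH motifs of each class were counted. In short internal exons 6 of 875 DRACH motifs carried an mESC site (0.686%, Wilson 95% interval 0.315 to 1.49%), against 20 of 174 in long internal exons (11.5%, 7.57 to 17.1%) and 44 of 471 in last exons (9.34%, 7.03 to 12.3%). The intervals of the short exons did not overlap with those of the other 2 classes, but they count every motif as independent. Few exons held most of the 20 sites in long internal exons, with 8 in exon 15 of Arid2 and 6 in exon 2 of Ep400. Chd4, Ino80 and Smarcc1 have no internal exon over 400 nt. Last exons differ from internal ones in position as well as in length.

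Heart gave 0.229%, 16.7% and 10.4% for the same 3 classes, and HEK293T cells 0.490%, 5.24% and 7.87%. First exons held few motifs, of which 2 of 37 (5.41%) carried a site in mESCs. The same class gave 4 of 37 (10.8%) in heart and 4 of 41 (9.76%) in HEK293T cells. Among single genes, Arid1a had the highest share, with mESC sites at 20 of its 147 DRACH motifs (13.6%), heart sites at 22 (15.0%) and, in ARID1A, HEK293T sites at 21 of 161 (13.0%). Chd7, Arid2 and Ep400 were at 5.80%, 5.59% and 5.58% in mESCs, Smarca4 at 3.88%, Chd4 at 2.96%, Arid1b at 2.90%, Ino80 at 2.46% and Smarcc1 at 0.813%. None of the 112 DRACH motifs of Smarca2 carried an mESC site, and 1 carried a heart site.

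**Figure D3:**
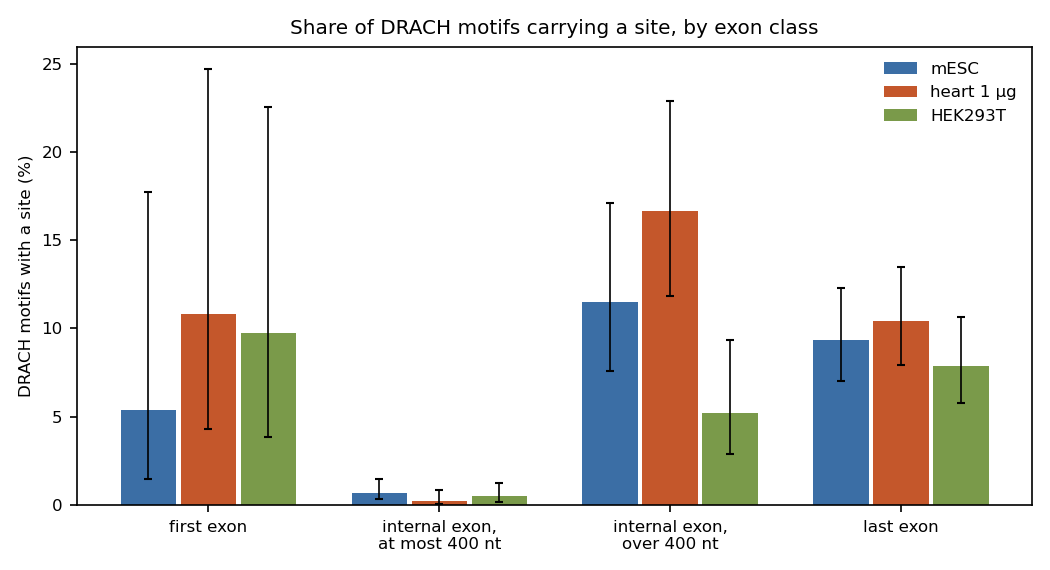
Share of the DRACH motifs of the 10 transcripts that carry a site (percent, linear axis from 0), by exon class and list, with Wilson 95% intervals that cover counting error only. Short internal exons are at 0.229 to 0.686% in mESCs, heart and HEK293T cells, and long internal and last exons at 5.24 to 16.7%. First exons, with 37 to 41 motifs, are at 5.41 to 10.8%.

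DRACH made up 73 of the 79 mESC sites (92.4%, Wilson 95% interval 84.4 to 96.5%), 84 of the 93 heart sites (90.3%, 82.6 to 94.8%) and 55 of the 63 HEK293T sites (87.3%, 76.9 to 93.4%). Sequence is an input of m6Aboost, so these shares are partly built in and are no finding about the 10 genes. GGACT was the most frequent pentamer in mESCs with 18 sites, followed by GGACA with 13 and GGACC with 10. The 6 mESC sites outside DRACH were 3 at GTACT, 2 at GGACG and 1 at GCACT. Of the 3 at GTACT, 2 were in Arid1a and 1 in Arid1b, and all 3 were also in the heart list. The highest scoring site of Ino80 was at GGACG, with the modified A at position -6, next to the stop codon.

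Sites in mESCs and heart were compared at identical positions. Of the sites of the 10 genes, 54 were in both lists, which is 68.4% of the mESC sites (Wilson 95% interval 57.5 to 77.6%) and 58.1% of the heart sites. Over the 5197 genes with sites in both lists, 68.8% of mESC and 51.4% of heart sites were shared. All 8 mESC sites of Arid1b and all 9 of Arid2 were found again in heart, as were 18 of 22 of Arid1a, 8 of 13 of Chd7 and 7 of 11 of Ep400. In Chd4 2 of 4 were shared, in Smarca4 1 of 5, in Ino80 1 of 5 and in Smarcc1 none of 2. Transcript levels in heart were not measured, so tissue differences in sites and in RNA cannot be told apart.

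Arid1a and Arid1b are paralogues, and some of their sites lay at bases aligned to each other, a comparison that was chosen after the sites had been seen and is given as a description. Their mouse coding sequences could be aligned over 6112 nt with 69.5% identity. In heart, 10 of the aligned bases carried a site in both genes, out of 22 sites of Arid1a and 18 of Arid1b on the aligned bases. In mESCs, 4 bases did, out of 20 and 8, and in HEK293T cells 5, out of 23 and 8. In the aligned sequences 42 bases were the A of a DRACH in both mouse genes, and 9 of them carried a heart site in both. The positions -706, -643 and -55 were sites in both genes in all 3 lists, and -24 in both mouse lists.

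The sequence around these bases was not identical. The windows shown above differed at 2 of 21 bases at position -706, at 8 at -643, at 7 at -55 and at 3 at -24, and at -643 the pentamers themselves differed, with GGACC in Arid1a and AGACT in Arid1b. Over the 19 pairs in mESCs, heart and HEK293T cells, the longest identical run through a paired site was 23 nt, and 101 nt around each pair differed at 23 to 45 bases. The authors kept uniquely mapped reads, short ones included. Whether reads were placed in the wrong paralogue was not tested. Between Smarca4 and Smarca2, which aligned over 4687 nt with 74.7% identity, no aligned base carried a site in both genes.

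**Figure D4:**
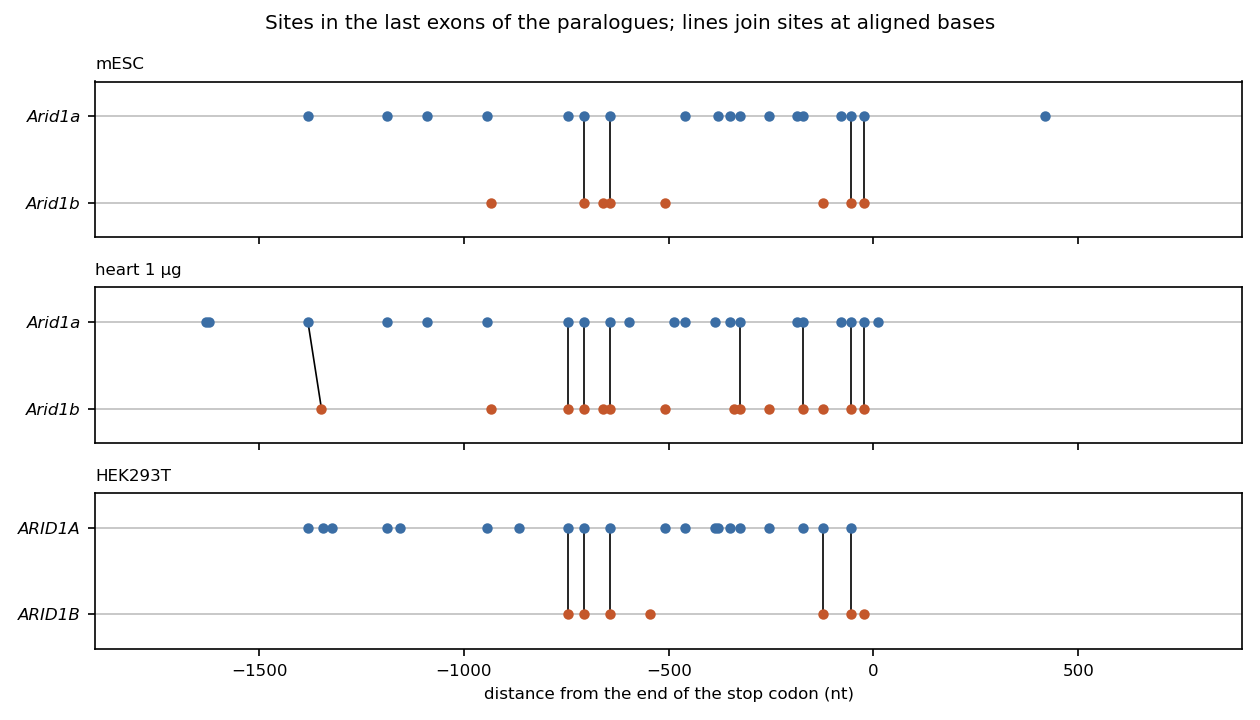
Sites in the last exons of Arid1a (blue) and Arid1b (orange) in mESCs, heart at 1 µg and HEK293T cells (human genes), against the distance in nt from the end of the stop codon. Black lines join sites at bases aligned between the paralogues. Lines stand at -706, -643 and -55 in all 3 lists.

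Mouse and human sites were compared by aligning the transcripts of each gene. Of the 78 mESC sites with an aligned human base, 31 (39.7%, Wilson 95% interval 29.6 to 50.8%) had a HEK293T site at that base. Where the motif was a DRACH in both species, 28 of 56 mESC sites (50.0%) had a HEK293T site, against 14 of the 946 motifs (1.48%) that were no mESC site. Both lists were called by m6Aboost from sequence among other inputs, so similar mouse and human sequences favour the same call. How much of the overlap this makes up was not tested. In Arid1a 15 of 22 sites were in both species, in Arid1b 5 of 8, in Chd4 3 of 4, in Chd7 4 of 13 and in Arid2 2 of 9. None of the 11 mESC sites of Ep400 had a HEK293T site at the aligned base, although 6 of them aligned to a DRACH. The same held for the 5 mESC sites of Ino80, of which 2 aligned to a DRACH. Of the 11 heart sites of Ep400, 1 had a HEK293T site at the aligned base.

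Sequence conservation varied around the sites that were in mESCs, heart and HEK293T cells. Of the 12 such Arid1a sites, those at -172, -706, -745, -943, -1381 and -6336 had identical windows in mouse and human, as had the Arid1b sites at -706, -643, -55 and -24. The Chd4 site at position 289, which had the highest score of all mESC sites of the 10 genes (0.954), kept its AAACT pentamer in a window that differed at 7 of 21 bases, and its HEK293T score was 0.872. The Smarcc1 site at position 187 (score 0.937) aligned to a HEK293T site (0.826) with AGACT in place of GGACT.

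Set side by side, the number of sites and the change in KO differed between the genes as follows. The 4 genes that rose had 22, 8, 9 and 13 mESC sites (Arid1a, Arid1b, Arid2 and Chd7), and the 2 that fell had 5 and 2 (Smarca4 and Smarcc1). Ep400 had 11 sites and a log2 fold change of -0.17 that did not pass the test. Arid1a had the most sites, but Arid1b, with 8, had the larger change.

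Among the other remodeller genes with 5 or more mESC sites, 5 of 19 rose and 2 fell, with a median log2 fold change of 0.22, and of all genes with as many sites 441 of 1855 rose and 163 fell. With 1 to 4 sites, 3 of 38 rose and 13 fell (median -0.25), against 690 and 785 of 4665 over all genes. With no site, 1 of 24 rose and 4 fell (median -0.22), against 1556 and 1035 of 9211. Over all genes tested, the medians were 0.14 with 5 or more sites, -0.06 with 1 to 4 and -0.03 without a site. These are descriptions: genes differ in length and level as well as in sites, and the part of either was not tested.

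**Figure D5:**
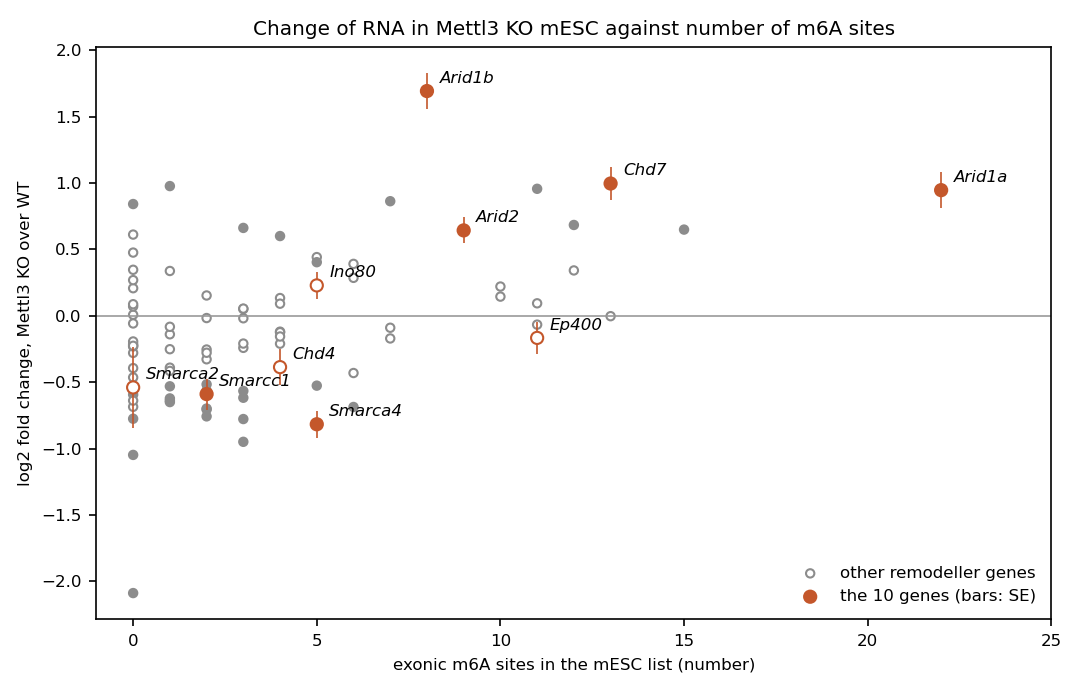
Log2 fold change between Mettl3 KO and WT mESCs against the number of exonic mESC sites, for the 10 genes (orange, with SE bars) and 81 other remodeller genes (grey). Filled points passed an edgeR adjusted p of at most 0.01. Arid1a, Arid1b, Arid2 and Chd7, with 8 to 22 sites, lie above 0, and Smarca4 and Smarcc1, with 5 and 2, below.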

How the data were processed

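Gene counts were obtained by the authors by mapping with STAR and counting with HTSeq 0.12.4 per GENCODE gene with strand, and were deposited as raw whole numbers. The fraction deposited as the score of mESC and HEK293T sites is the m6Aboost prediction score. The score deposited by the authors with the heart sites has no stated scale, and only positions were used. Heart inputs below 1 µg are given in ng by the authors' list names and in µg by the sample titles, and ng was used. The authors mapped miCLIP2 reads with STAR 2.7.3a and removed duplicates with UMI-tools 1.0.0.

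Differences were tested with edgeR 4.0.16 under R 4.3.3, by quasi-likelihood after filterByExpr and TMM, with Benjamini-Hochberg adjustment. Each SE of a log2 fold change was derived from this test, as the absolute change divided by the square root of the F statistic. FPKM values are CPM per kb of merged exons. On simulated counts with 200 changed genes the test was checked before use. Gene models came from GENCODE, in an earlier mouse and a later human release than the authors'. The transcript used was the longest with a coding sequence of at least 80% of the longest. Sites were handled with Python 3.11.15, pysam 0.24.0 and Biopython 1.88 (global alignment, match 2, mismatch -1, gap opening -5, extension -0.5). Lines that name no gene (htseq-count's classes such as no feature) made up 36.7 to 42.7% of all counted reads and were left out. Gene counts of 22746733 to 27254245 per library set the precision, and the site lists carry no depth per site. The reads per miCLIP2 sample that the study's supplement gives were not used here.

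Same-numbered WT and KO libraries deviated together (correlations of deviations from the group means 0.224, 0.554 and 0.443 over 10854 genes), so the replicate number was tried as a block. Other alternatives were DESeq2 1.42.0, its size factors, library size only, other count filters, an adjusted p of 0.05, leaving out each replicate, sites in exons of several genes or in the gene body, a score of at least 0.7, sharing within 2 nt, any coding transcript, RRACH in place of DRACH, a human site within 3 nt and heart sites for the human comparison. The members, the lists and the tests were chosen with earlier results of these data known. Named genes are Mettl3, the 10 genes, the 10 other remodeller genes with the largest change among those called without overlap, 5 paralogues or central subunits (Smarcc2, Smarcb1, Pbrm1, Chd3, Srcap), the 3 genes most like Smarca4 and Arid1a, and the markers. Outside this rule, Chd8, Ino80d, Yeats4, Ing3 and Morf4l2 were named after their values were seen. The alignment of paralogues and the exon classes were added after the data were seen.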

Additional observations from a re-analysis of the deposited data

How the results depend on the processing

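Of 285 values recomputed under an alternative, 262 stayed alike: tested values kept their direction and their side of the threshold, counts stayed within 1.5 times, and shares stayed within their 95% interval. The permutation p of the paralogue ratios cannot fall below 0.1, so they could not cross the threshold of 0.01. For these ratios only the direction could change. With the replicate block, no call of the 10 genes changed, 39 other remodeller genes were called (14 higher), 3143 of all genes were lower in KO, and 43.5% of all genes were called. With library size only, 1203 genes were lower in KO. At an adjusted p of 0.05, 7337 genes were called (3470 lower) and 15 other remodeller genes were higher. The cause of these differences was not tested.

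Leaving out 1 library gave 2761 to 5412 genes called, 955 to 2372 of them lower in KO, and 16 to 28 other remodeller genes, 10 to 19 of them lower. Of the 10 genes, 1 to 3 were lower: Smarcc1 was lost without KO replicate 1 or 3, and Smarca2 was called without WT replicate 3. Without WT replicate 3 the log2 difference of the Smarca2 to Smarca4 ratio was -0.00398, and over all such leave-one-out values it reached 0.737. At a score of at least 0.7, 41 of the 79 mESC sites and 30 of the 63 HEK293T sites remained. Heart sites rest on 1 library per input and the lists carry no depth per site, so missing sites cannot be read as missing m6A.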
